A study of Mus musculus with 60 samples.

Results

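Cancer-associated fibroblasts (CAFs) are the stromal cells of a tumour that lay down its collagen and secrete cytokines and growth factors. The comparison described here asks where the response of mouse CAFs to 393P lung cancer cells differed between co-culture in contact, in multicellular aggregates, and co-culture across the membrane of a Boyden chamber. For each gene, the 393P change in aggregates (log2 of CAFs with 393P over CAFs alone) was set against the 393P change in the Boyden chamber, and the contact change minus the membrane change is called the difference. A positive difference means that the contact change was the higher of the pair. The comparison drew on 36 of the 60 samples of the series. They are 3 aggregate libraries of CAFs with 393P, 3 aggregate libraries of CAFs alone, 15 Boyden libraries of CAFs with 393P and 15 Boyden libraries of CAFs alone. The Boyden libraries are 3 technical libraries of each of 5 replicates per group, and their counts were summed per replicate. Thus n = 3 against 3 in contact and n = 5 against 5 across the membrane. The difference was then compared with that of 344SQ, the other cancer line of the series, from 3 aggregate libraries and 5 Boyden replicates of CAFs with 344SQ.

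All the fibroblasts carry the label tCAF and were sorted by FACS (fluorescence-activated cell sorting) ahead of lysis, and the titles of the aggregate controls also name CAF-GFP. The lines 393P and 344SQ come from mouse lung adenocarcinomas. 393P is known as an epithelial, non-metastatic line, and 344SQ as a metastatic one. The sources used here do not give the origin of the fibroblasts, the culture times or the medium. In an aggregate, fibroblasts and cancer cells touch, so ligands held on a membrane, such as the Jagged ligands of Notch receptors, can act beside secreted ones. A Boyden chamber lets secreted factors through its pores and keeps the cells apart. Fibroblasts commonly answer cancer cells by making matrix, by taking on a contractile state driven by TGF-beta, or by secreting cytokines and complement.

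The libraries differed in depth and make-up. The aggregate libraries held 991901 to 1258751 counts with 393P and 757717 to 1135567 counts in CAFs alone. The Boyden sums held 6227570 to 7126107 counts with 393P and 6734110 to 8542262 counts in CAFs alone. Ribosomal RNA-like genes took 20.1% to 23.7% of the counts with 393P in aggregates and 24.1% to 24.96% in CAFs alone, against 0.899% to 1.13% and 0.961% to 1.01% in the Boyden sums. Of 48440 genes listed, 7827 passed the count filter in both tables and were tested; another 6213 passed in the Boyden table alone, so genes quiet in the aggregates are absent from the counts below. The fibroblast genes Col1a1, Col1a2 and Vim were abundant in every library, while Lum had no count in any of the 6 aggregate libraries and at most 11 in a Boyden sum. Dcn, also a fibroblast gene, had 10 to 34 counts with 393P and 58 to 99 in CAFs alone in aggregates. Its changes were -2.01 in contact and -0.62 across the membrane, with a difference of -1.39. The 24 carcinoma and epithelial markers summed to 25.4 to 109 CPM with 393P and 19.4 to 28.4 CPM in CAFs alone in aggregates. Their sum was 66.8 to 141 CPM with 393P and 87.7 to 115 CPM alone in the Boyden chamber, and none of the 24 passed the filter. Epcam had at most 2 counts in any of these libraries or sums. Other markers were higher with 393P in aggregates. Krt8 had 1 to 39 counts with 393P and 0 to 1 in CAFs alone there, and Cldn4 had 4 to 14 and 0 to 1. The ranges of Cdh1 (4 to 7 and 1 to 5) and Krt7 (1 to 6 and 0 to 2) overlapped. In the Boyden sums the ranges of these markers were wider with 393P and overlapped those of CAFs alone. Cdh1 had 4 to 118 counts with 393P and 12 to 35 alone, and Krt7 had 19 to 191 and 43 to 84. Krt8 had 3 to 67 and 5 to 26, and Krt18 had 4 to 99 and 9 to 27. The sum of 141 CPM was that of membrane replicate 1 of 393P. Carry-over of cancer cells was not tested. Contact, culture format, depth and library make-up cannot be told apart in this design, since each differs between the tables as a whole.

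A difference was called at an adjusted p under 0.05 in edgeR's quasi-likelihood test on both tables together, and 1293 of 7827 genes (16.5%) passed. Of these, 711 (9.08% of genes tested) were positive and 582 (7.44%) negative. These shares are the ones to set beside the counts of called list members below, and a count near them says nothing about its list. The replicates spread more in the aggregates than in the Boyden sums (biological coefficient of variation 15.98% and 8.06%), whereas the joint test shares 1 spread per gene. With each table given its own spread, 927 genes were called (11.8%), 499 positive (6.38%) and 428 negative (5.47%), and 918 genes (11.7%) were called in both fits. In simulated data with 200 changed genes, 17.06% of the calls of the joint test were false, against 5.17% with own spread. Those 200 of 7827 genes changed in the aggregates only. A false share depends on how many genes change, so these values cannot be carried over to the 1293 calls. "Called" below refers to the joint test, and calls lost with own spread are named. The contact change was called for 1403 genes (17.9%), 761 up (9.72%) and 642 down (8.2%), and with own spread for 859 (11%). The membrane change was called for 1064 genes (13.6%), 543 up (6.94%) and 521 down (6.66%), and with own spread for 1561 (19.9%). The contact changes were wider, with a standard deviation (SD) across genes of 0.65 log2, against 0.23 log2 across the membrane. Their median standard errors (SE) were 0.25 and 0.10. The changes share no library, and across the 7827 genes, which are not independent replicates, their Pearson correlation was 0.086 and their Spearman correlation 0.035.

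Both changes were called for 304 genes. Of these, 178 had the same sign and are called concordant below, which is 2.27% of the genes tested, 12.7% of the contact calls and 16.7% of the membrane calls. The other 126 had opposite signs (1.61% of the genes tested, 8.98% of the contact calls and 11.8% of the membrane calls). Each of these also had a called difference, which was close to certain because changes of opposite sign add up in the difference. The opposite genes were 78 that rose in contact and fell across the membrane and 48 that fell in contact and rose across the membrane. Among the concordant genes, 88 rose and 90 fell under both conditions, and 85 of the 178 also had a called difference. In all 85 the contact change was the larger of the pair, and no gene had a called difference with the larger concordant change across the membrane. This was largely set beforehand, since contact changes had the larger SE and had to be larger to be called. The remaining called differences were 818 genes changed in contact with no call across the membrane, 122 genes with the reverse, and 142 with neither change called alone. With own spread, 190 genes were concordant (2.43%) and 115 opposite (1.47%), and 82 genes were opposite in both fits.

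**Figure D1:**
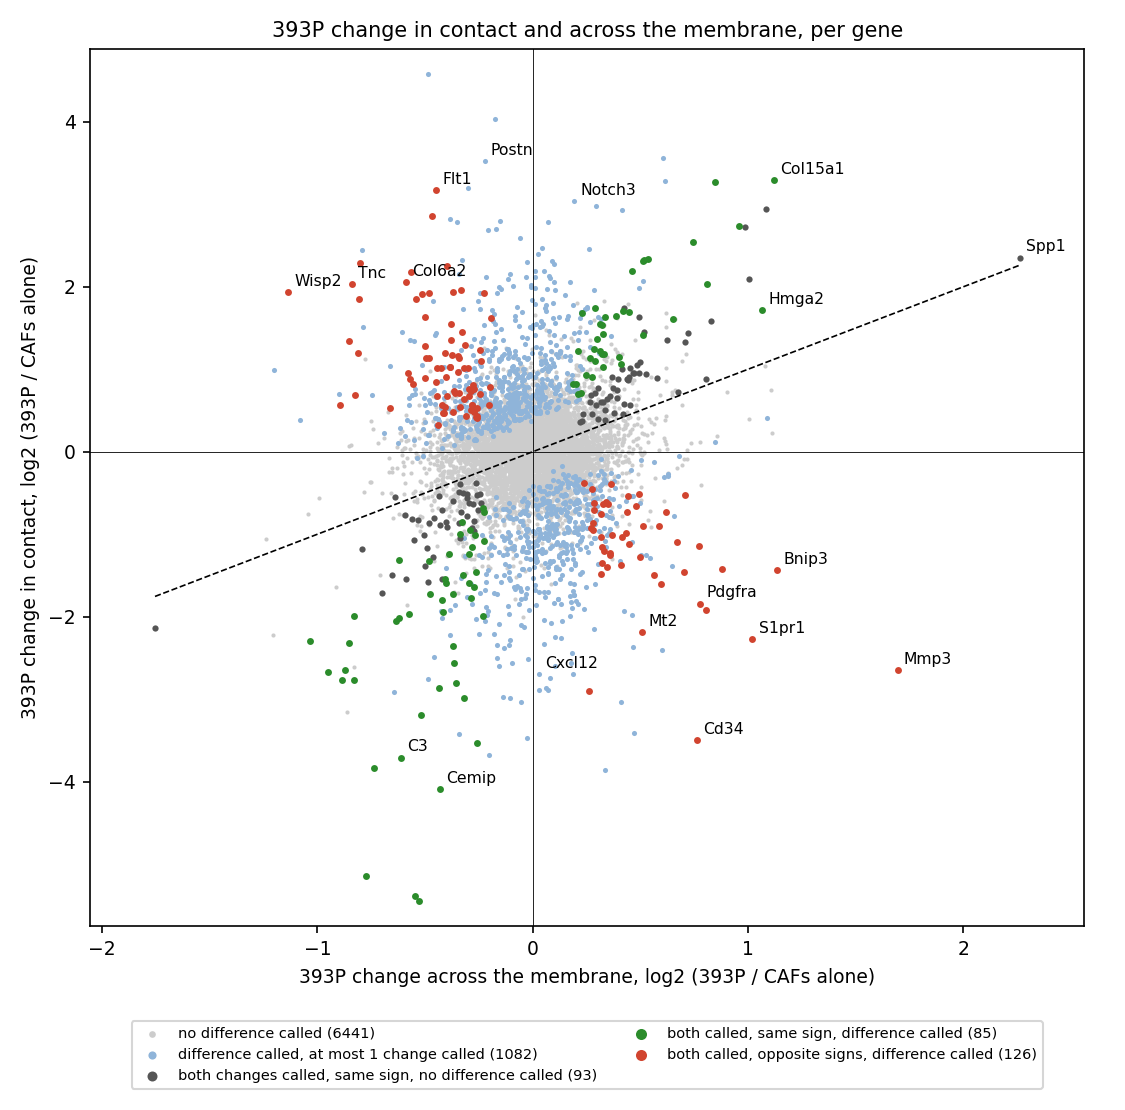
Each point is 1 of 7827 genes, with the 393P change across the membrane on the x axis and the 393P change in contact on the y axis, both log2 of 393P over CAFs alone. The dashed line marks equal changes, red points are the 126 opposite genes, green and dark grey points the 178 concordant ones, and Spp1 lies close to the line while Mmp3, Cd34 and Wisp2 lie far from it.

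Genes of collagen VI and most fibrillar collagens rose in contact with 393P, and across the membrane they fell or had no called change. Collagen VI forms beaded microfibrils around cells, and all 3 tested of its 6 genes had a positive difference. Gene positions are given below on mm10 (GRCm38), from the start to the end of the annotated gene. Col6a2 (chr10:76595762-76623630) had 3934, 5303 and 3770.3 CPM in contact with 393P, against 898, 1134 and 1104 CPM in CAFs alone in aggregates. Across the membrane, Col6a2 had 162, 150.02, 172, 169 and 171 CPM with 393P, against 288, 213, 227, 247 and 267 CPM in CAFs alone. The groups did not overlap in either format, and the order of 393P and CAFs alone was reversed between them. Over all genes tested, the groups did not overlap in contact for 26.1% and across the membrane for 15.1%. The changes of Col6a2 were 2.06 ± 0.14 in contact and -0.59 ± 0.10 across the membrane, and the difference was 2.65 ± 0.17 (SE; edgeR adjusted p = 2.6e-15). Col6a1 differed by 2.14 ± 0.16, with changes of 1.64 in contact and -0.50 across the membrane, both called. Col6a3 differed by 2.90 ± 0.16, with 2.69 in contact, while its change of -0.21 across the membrane was called with own spread and not in the joint test (adjusted p = 0.031 and 0.167).

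Of 7 fibrillar collagen genes tested, 5 rose in contact and 3 fell across the membrane. The difference was positive in 6 and negative in none, with own spread in 5 and none. The median difference was 1.04 log2, beside 0.03 over all genes tested. Col3a1 lost its call with own spread (edgeR adjusted p = 0.071). Col1a1, a chain of type I collagen, the main collagen of stroma, showed opposite changes. Col1a1 (chr11:94936224-94953042) had 2259, 1864 and 2843 CPM in contact with 393P, against 1502, 1210.4 and 1001 CPM in CAFs alone in aggregates. Across the membrane, Col1a1 had 839.8, 786, 796, 802 and 792 CPM with 393P, against 1126, 1012, 1060.1, 1042 and 1072 CPM in CAFs alone. Every library with 393P lay above those of CAFs alone in aggregates, and every sum with 393P lay below those of CAFs alone in the Boyden chamber. The difference was 1.31 ± 0.16 (SE; edgeR adjusted p = 2.7e-08), made of 0.90 ± 0.13 in contact and -0.40 ± 0.09 across the membrane. Col5a3, a minor chain of type V collagen, differed by 3.50 ± 0.28, with 3.20 in contact and a change of -0.30 across the membrane that was not called. Of 18 collagen-processing enzyme genes tested, 6 had a positive and 3 a negative difference, and 1 negative call was left without replicate 1 of CAFs alone in aggregates or by limma-voom. The procollagen peptidase gene Adamts2 was opposite (1.02 in contact and -0.39 across the membrane), and the cross-linking enzyme genes Loxl1 and Loxl3 differed by 1.26 ± 0.16 and 1.49 ± 0.25. Loxl3 overlaps Htra2 on the other strand, and since the strand setting of the counting is not given, its counts are uncertain.

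Basement membrane genes moved both ways, with 7 positive and 4 negative differences among 16 tested. Type IV collagen shows this within 1 family. Col4a1 and Col4a2, the chains of the common network, rose in contact and fell across the membrane, while Col4a5 and Col4a6 fell under both conditions, further in contact. Col4a1 (chr8:11198423-11312826) had 672, 1034 and 743 CPM in contact with 393P, against 192, 214 and 237 CPM in CAFs alone in aggregates. Across the membrane, Col4a1 had 311, 317, 320.2, 319 and 305 CPM with 393P, against 390.04, 413, 409.97, 397 and 419.6 CPM in CAFs alone. None of the groups overlapped. Col4a1 differed by 2.31 ± 0.15 (SE; edgeR adjusted p = 3.9e-15) and Col4a2 by 1.73 ± 0.14, whereas Col4a6 differed by -2.45 ± 0.34, with -2.80 in contact and -0.36 across the membrane. Col4a1 and Col4a2 start head to head from a shared promoter, and their sequences are shown because the pair moved alike. The transcription starts lie 21 bases apart. Each window below runs from 250 bases before to 50 bases after the start (RefSeq, GRCm38.p6) and is written 5′ to 3′ on the strand of its gene, with the 78 bases held by both windows (chr8:11312777-11312854) in capitals.
Col4a1, minus strand, chr8:11312777-11313076: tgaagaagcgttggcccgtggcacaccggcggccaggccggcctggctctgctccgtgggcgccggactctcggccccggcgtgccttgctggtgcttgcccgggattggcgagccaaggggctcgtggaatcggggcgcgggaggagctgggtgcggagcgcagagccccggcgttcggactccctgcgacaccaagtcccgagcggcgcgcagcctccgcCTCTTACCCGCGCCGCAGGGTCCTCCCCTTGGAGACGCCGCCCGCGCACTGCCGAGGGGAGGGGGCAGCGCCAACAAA
Col4a2, plus strand, chr8:11312555-11312854: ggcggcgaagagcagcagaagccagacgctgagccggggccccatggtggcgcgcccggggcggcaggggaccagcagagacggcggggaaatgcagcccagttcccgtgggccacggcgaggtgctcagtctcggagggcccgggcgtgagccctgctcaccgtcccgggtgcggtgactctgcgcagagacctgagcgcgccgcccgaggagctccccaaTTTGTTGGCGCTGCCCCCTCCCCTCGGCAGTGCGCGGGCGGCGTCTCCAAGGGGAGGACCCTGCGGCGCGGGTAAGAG
The annotated genes overlap by their first bases on opposite strands, and reads over those bases cannot be assigned without the strand.

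Matricellular and elastic fibre genes had 10 positive and 5 negative differences among 24 tested. Postn encodes periostin, which binds collagen and integrins and marks activated fibroblasts. Postn (chr3:54361109-54391037) had 497, 462 and 564 CPM in contact with 393P, against 48.5, 44.2 and 39.03 CPM in CAFs alone in aggregates. Across the membrane, Postn had 17.5, 18.9, 20.4, 17.5 and 13.9 CPM with 393P, against 21.9, 20.03, 22.4, 18.6 and 19.8 CPM in CAFs alone. The contact groups lay far apart and the membrane groups overlapped. The difference of Postn was 3.74 ± 0.21 (SE; edgeR adjusted p = 6.3e-17), with a 95% interval of 3.32 to 4.16. Fbn1, the fibrillin of elastic microfibrils, differed by 2.12 ± 0.13 with no called membrane change. Wisp2, a connective tissue growth factor relative (CCN5), was opposite with a wide positive difference. Wisp2 (chr2:163820861-163833146) had 73.8, 39.1 and 54.5 CPM in contact with 393P, against 20.8, 14.1 and 6.97 CPM in CAFs alone in aggregates. Across the membrane, Wisp2 had 70.6, 60.4, 80.004, 59.5 and 67.3 CPM with 393P, against 181, 126, 134, 149 and 153 CPM in CAFs alone. Wisp2 was higher with 393P in each contact library and lower with 393P in each membrane sum, and the difference was 3.07 ± 0.38 (SE; edgeR adjusted p = 1.9e-07). Tnc (tenascin C) had a difference of 2.87 ± 0.43, but its 3 contact libraries ranged from 788 to 2525 CPM, and the contact change of 2.03 was not called with own spread. Efemp1 (fibulin 3) fell under both conditions, further in contact, with -3.53 in contact and -0.26 across the membrane.

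The proteases and inhibitors were divided, with 7 positive and 5 negative differences among 20 tested (5 and 5 with own spread). Mmp3, or stromelysin 1, which cuts proteoglycans and activates other metalloproteinases, had the most negative difference of the genes named by the rule. Mmp3 (chr9:7445822-7455975) had 6.36, 2.17 and 5.74 CPM in contact with 393P, against 34.6, 53.01 and 2.79 CPM in CAFs alone in aggregates. Across the membrane, Mmp3 had 44.2, 36.5, 37.3, 46.7 and 43.6 CPM with 393P, against 12.7, 10.9, 15.5, 14.7 and 10.3 CPM in CAFs alone. The membrane groups did not overlap, and the contact groups did, since 1 library of CAFs alone held 2 counts and the other two held 30 each. The difference was -4.35 ± 0.80 (SE; edgeR adjusted p = 0.00044), made of -2.65 ± 0.81 in contact and 1.69 ± 0.22 across the membrane. It stayed called with own spread (adjusted p = 0.0186), where the contact change alone was not (adjusted p = 0.142). Fap encodes the surface protease fibroblast activation protein. Fap (chr2:62500943-62574075) had 179, 122 and 145 CPM in contact with 393P, against 12.7, 7.07 and 16.7 CPM in CAFs alone in aggregates. Across the membrane, Fap had 3.70, 3.54, 2.68, 1.62 and 2.42 CPM with 393P, against 1.38, 1.29, 1.59, 2.60 and 2.19 CPM in CAFs alone. The contact groups did not overlap and the membrane groups did, and the difference was 2.96 ± 0.41 (SE; edgeR adjusted p = 6.8e-07). Adamts1 and Adamts5, which cleave versican and aggrecan, fell under both conditions and further in contact, with differences of -1.42 ± 0.18 and -2.43 ± 0.29.

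**Figure D2:**
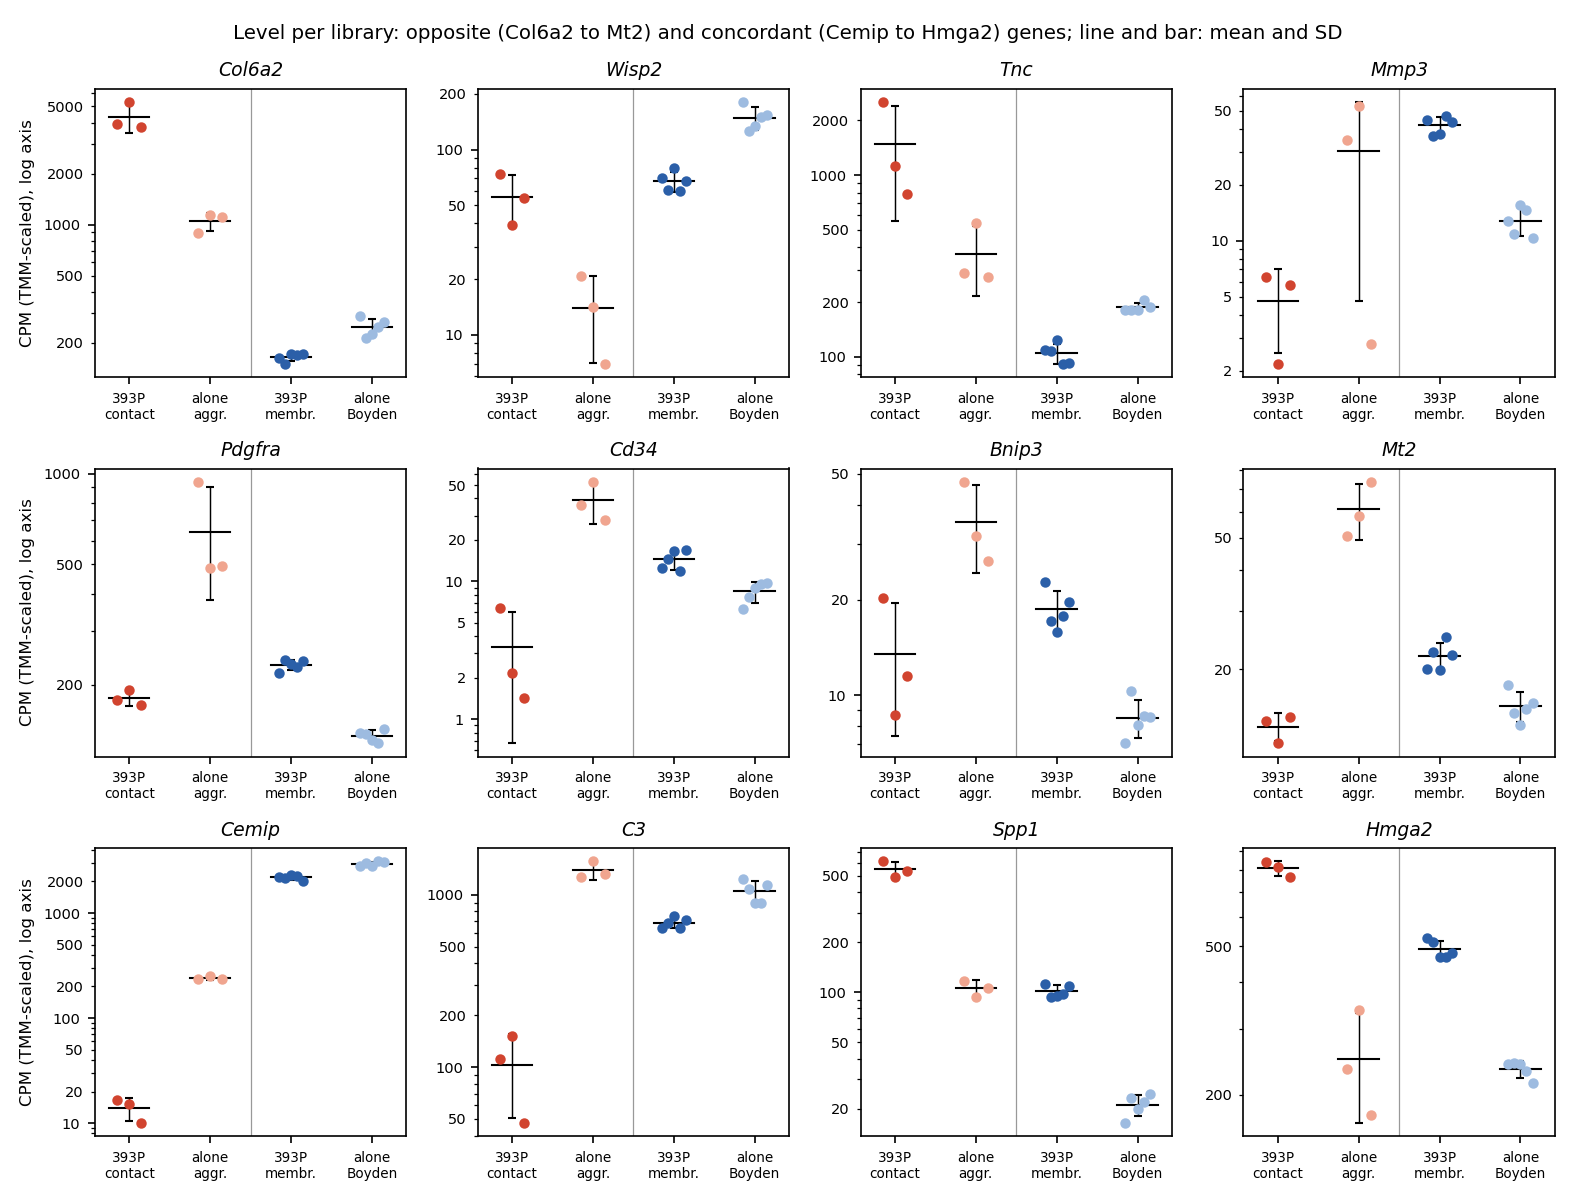
Levels in TMM-scaled CPM on log axes, for 12 genes, with 1 point per library or per summed Boyden replicate, a line for the mean and a bar for the SD. Each panel runs from 393P in contact and CAFs alone in aggregates to 393P across the membrane and CAFs alone in the Boyden chamber. Col6a2, Wisp2 and Tnc rose in contact and fell across the membrane, Pdgfra, Cd34, Bnip3 and Mt2 did the reverse, and Mmp3 shows the overlap of its contact groups.

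Surface receptors that mark fibroblast states also parted. Of 9 fibroblast surface genes tested, 3 had a positive and 2 a negative difference. Pdgfra, the platelet-derived growth factor receptor alpha typical of resident fibroblasts, fell in contact and rose across the membrane. Pdgfra (chr5:75152292-75198215) had 178, 192 and 171 CPM in contact with 393P, against 940.2, 488 and 494 CPM in CAFs alone in aggregates. Across the membrane, Pdgfra had 219, 240.5, 234, 229 and 239.6 CPM with 393P, against 138, 137, 131, 128 and 143 CPM in CAFs alone. The groups did not overlap in either format, and 1 library of CAFs alone in aggregates stood above the other two. The difference was -2.62 ± 0.21 (SE; edgeR adjusted p = 5.2e-11), from -1.84 ± 0.18 in contact and 0.78 ± 0.11 across the membrane. Cd34, a sialomucin of adventitial fibroblasts, also fell in contact and rose across the membrane. Cd34 (chr1:194938819-194961279) had 6.36, 2.17 and 1.44 CPM in contact with 393P, against 35.8, 53.01 and 27.9 CPM in CAFs alone in aggregates. Across the membrane, Cd34 had 12.4, 14.5, 16.7, 11.96 and 16.9 CPM with 393P, against 6.28, 7.72, 8.93, 9.61 and 9.81 CPM in CAFs alone. The contact libraries with 393P rested on 1 to 5 counts each, and the difference was -4.26 ± 0.53 (SE; edgeR adjusted p = 7.2e-08). Pdgfrb, the receptor of the beta type, differed by 2.26 ± 0.14 with no called membrane change, and Thy1 by 2.34 ± 0.40. S1pr1, a sphingosine-1-phosphate receptor, and Vcam1, an adhesion molecule, were opposite in the sense of Pdgfra, at -3.30 ± 0.39 and -1.57 ± 0.18.

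All 5 tested of 14 mural cell genes had a positive difference, also with own spread, with a median of 2.71 log2. The count filter can be passed in the aggregates through 1 group alone, so genes high only with 393P are tested. Members low in every group are not, so the 5 of 5 depends on the filter and does not speak for the untested members. Summed over the aggregate libraries, Cspg4 held 222 counts with 393P and 28 in CAFs alone. Mural cells are the pericytes and smooth muscle cells of vessels. Cspg4 (NG2) differed by 3.14 ± 0.45, Ebf1 by 2.71 ± 0.28 and the endothelin receptor gene Ednra by 2.69 ± 0.34. The other two were Notch3 and Pdgfrb. The defining mural markers Rgs5 and Myh11 were not tested, with at most 1 and 2 counts in an aggregate library and at most 13 and 14 in a Boyden sum. The summed 14 genes ranged from 1670 to 2499 CPM with 393P and from 417 to 467 CPM in CAFs alone in aggregates. In the Boyden sums the range was 212 to 229 CPM with 393P and 217 to 262 CPM in CAFs alone. Flt1, a VEGF receptor counted among the endothelial markers, was opposite. Flt1 (chr5:147561604-147726011) had 491, 709 and 452 CPM in contact with 393P, against 43.8, 68.9 and 75.3 CPM in CAFs alone in aggregates. Across the membrane, Flt1 had 57.999, 63.3, 58.2, 49.95 and 55.9 CPM with 393P, against 73.4, 83.1, 80.4, 70.4 and 81.6 CPM in CAFs alone. Flt1 was higher with 393P in each contact library and lower in each membrane sum, with no overlap. The difference was 3.62 ± 0.29 (SE; edgeR adjusted p = 8.3e-10), and the adjusted p with own spread was 0.00251. Of 11 endothelial markers, Flt1 alone was tested. Cdh5 had no count in any of these aggregate libraries and Pecam1 had at most 6. The 11 summed to 324 to 525 CPM with 393P and 39.6 to 60.8 CPM in CAFs alone in aggregates. In the Boyden chamber they summed to 60.1 to 66.9 CPM with 393P and 85.8 to 95.99 CPM in CAFs alone. Flt1 made up most of each sum. Its mean CPM without TMM scaling was 395 with 393P and 46.6 in CAFs alone in aggregates, and 53.7 and 74.8 in the Boyden chamber. In each contact library with 393P, 6 to 7 of the 11 had no count, so the sums reflect Flt1 and not the list. In bulk samples, more cells of a type and more RNA per cell cannot be told apart, and the part of other cells in these values was not tested.

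Of 13 smooth muscle contractile genes tested, 6 had a positive and none a negative difference, and 3 of the calls held with own spread, as many as were made without replicate 1 of CAFs alone in aggregates. Cald1 and Tpm4, an actin-binding regulator and a tropomyosin, differed by 0.74 ± 0.14 and 0.75 ± 0.15. The contractile genes Tagln and Myl9 had differences of -0.85 and -0.86 that were not called, with contact changes of -1.32 each. Acta2, the smooth muscle actin that defines myofibroblasts, was called in the joint test and not with own spread. Acta2 (chr19:34241090-34255590) had 41.98, 105 and 166 CPM in contact with 393P, against 16.2, 21.2 and 76.7 CPM in CAFs alone in aggregates. Across the membrane, Acta2 had 2791, 2588, 3017, 2660.4 and 2836 CPM with 393P, against 4822, 3728, 4111, 4344 and 4150.5 CPM in CAFs alone. The contact groups overlapped and the membrane groups did not. The difference was 2.05 ± 0.53 (SE; edgeR adjusted p = 0.0102), and with own spread its adjusted p was 0.181. Without replicate 3 of CAFs alone in aggregates the Acta2 difference was 3.11, and without replicate 1 it was 1.61 and no longer called.

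Notch signalling runs between touching cells: a ligand such as Jagged 1 on one cell opens the receptor on the next, and the receptor fragment acts with Rbpj on targets such as the Hes and Hey genes. All 9 tested of 23 Notch genes had a called difference, 6 positive and 3 negative (5 and 3 with own spread). Over all genes tested, 16.5% had a called difference. As for the mural cell genes, the 9 of 9 depends on the count filter, which genes high only with 393P can pass in the aggregates. It does not speak for the untested members. Notch3 is a receptor of mural cells and fibroblasts. Notch3 (chr17:32120820-32166852) had 174, 222 and 201 CPM in contact with 393P, against 23.1, 21.2 and 27.9 CPM in CAFs alone in aggregates. Across the membrane, Notch3 had 3.70, 3.54, 2.34, 2.91 and 1.66 CPM with 393P, against 1.99, 2.29, 2.94, 2.34 and 2.71 CPM in CAFs alone. The contact groups were widely separated, and the membrane groups overlapped at levels of a few CPM. The difference of Notch3 was 2.85 ± 0.33 (SE; edgeR adjusted p = 1.7e-08). Notch1 differed by 1.61 ± 0.31 and the target Hes1 by 1.31 ± 0.28. The ligand gene Jag1 was opposite, with 0.89 ± 0.22 in contact and -0.50 ± 0.12 across the membrane, and its difference was 1.39 ± 0.25 (SE; edgeR adjusted p = 9.9e-05). Notch2 fell in contact (-0.93) and had a change of 0.03 across the membrane. Rbpj differed by -0.73 ± 0.18, from a contact change of -0.05 and a called membrane change of 0.68. Heyl, another Hes and Hey family target, failed the filter in the Boyden table. It held 66 to 164 counts with 393P and 0 to 8 in CAFs alone in aggregates, against 0 in each 393P sum and 0 to 2 in CAFs alone in the Boyden chamber.

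TGF-beta ligands, receptors and targets had 8 positive and 3 negative differences among 18 tested (5 and 2 with own spread). The ligand gene Tgfb1 had a called contact change and none across the membrane. Tgfb1 (chr7:25687002-25705077) had 159, 241 and 225 CPM in contact with 393P, against 54.2, 54.8 and 50.2 CPM in CAFs alone in aggregates. Across the membrane, Tgfb1 had 18.9, 17.7, 18.2, 21.5 and 17.5 CPM with 393P, against 19.9, 18.6, 18.2, 16.6 and 16.4 CPM in CAFs alone. The contact groups did not overlap and the membrane groups did. The difference was 1.91 ± 0.20 (SE; edgeR adjusted p = 7.6e-10). Pmepa1, a target that dampens the pathway, differed by 1.49 ± 0.14, and Tgfbr3, the co-receptor betaglycan, by -1.63 ± 0.15. Of 12 mesenchymal transcription factor genes tested, 7 had a positive difference and none a negative one, in both fits, including Runx1 at 1.06 ± 0.16, Prrx1 at 0.87 ± 0.14 and Twist1 at 1.75 ± 0.41. Integrin genes, which encode the receptors for these matrix proteins, had 4 positive differences among 7 tested and no negative one. The fibronectin receptor chain Itga5 differed by 1.15 ± 0.19, and Itgb5 was opposite at 1.01 in contact and -0.45 across the membrane.

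**Figure D3:**
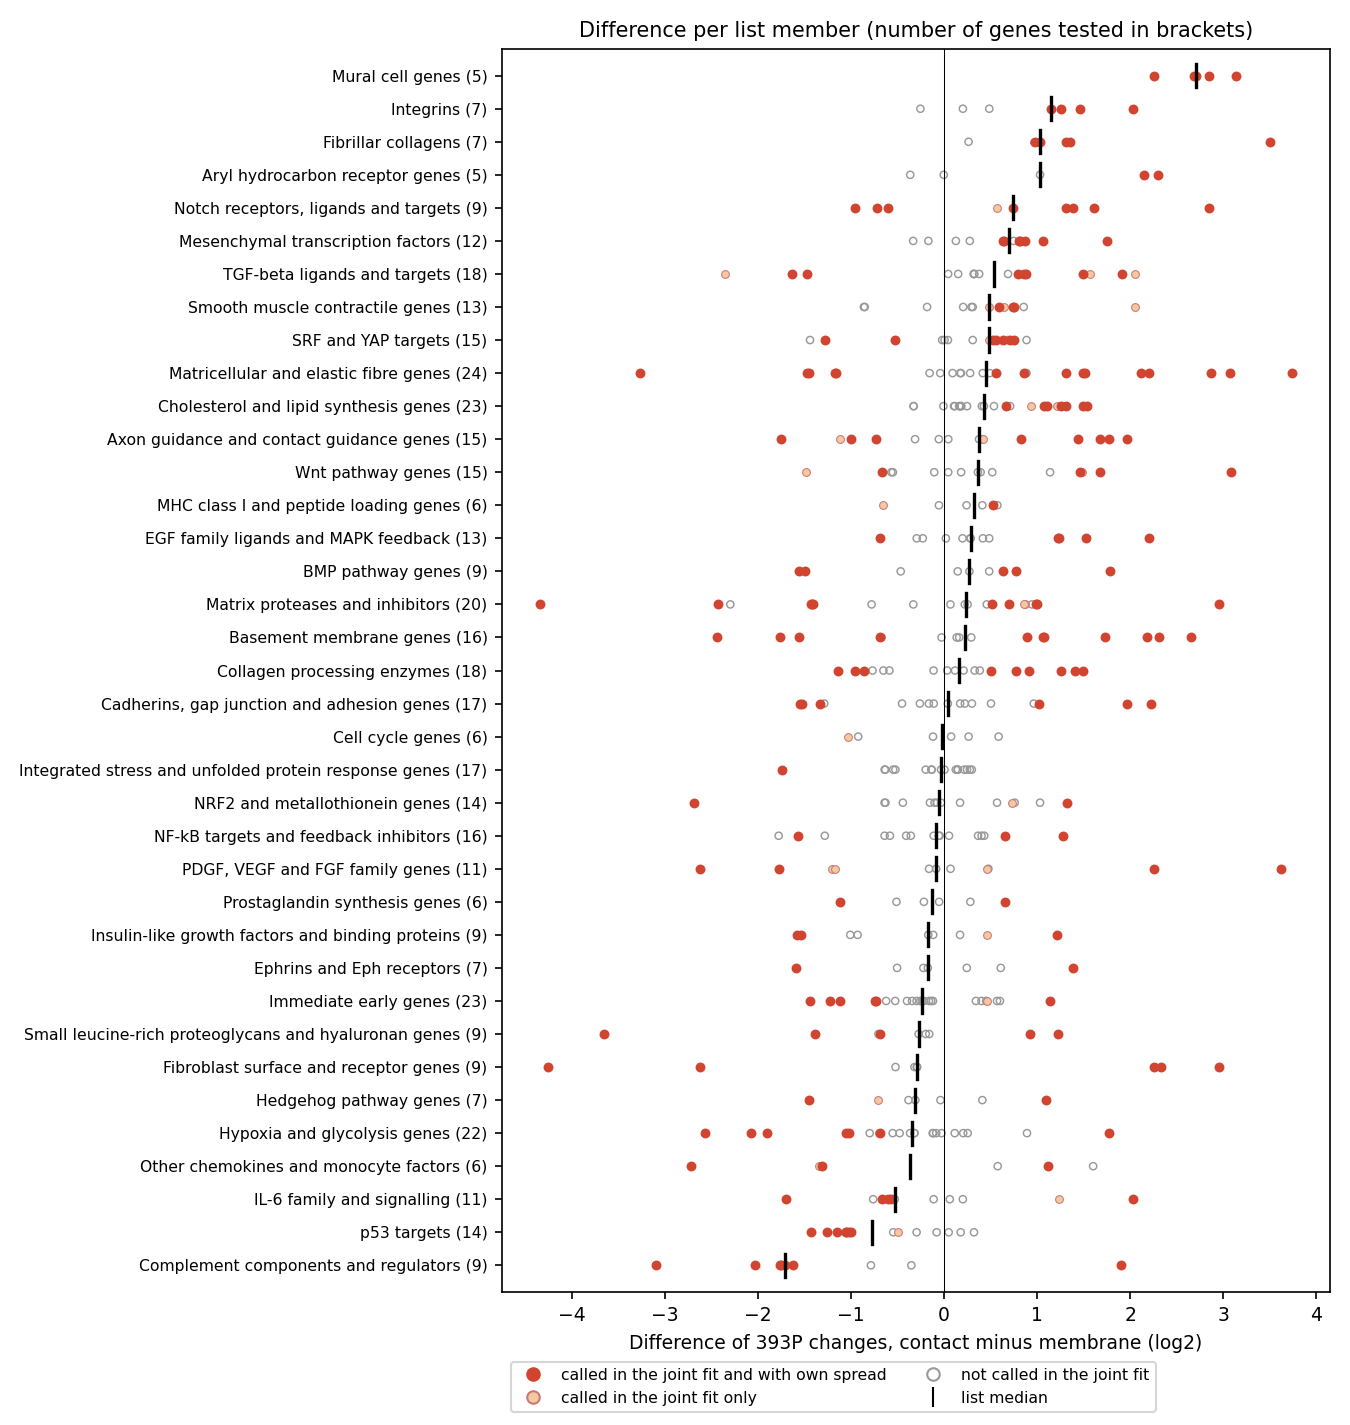
Each point is the difference (contact change minus membrane change, log2) of 1 tested gene of a list, with filled points for called genes, pale points for calls lost with own spread, open points for genes not called and a bar at the list median. The 5 mural cell genes lie above 2 and the complement genes have the lowest median, at -1.72.

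Complement proteins tag cells and recruit leukocytes. Of 9 complement genes tested, 6 had a negative and 1 a positive difference, and the median was -1.72 log2. C3, the central component cleaved by every complement route, fell under both conditions. C3 (chr17:57203970-57228136) had 111, 151 and 47.4 CPM in contact with 393P, against 1271, 1569 and 1312 CPM in CAFs alone in aggregates. Across the membrane, C3 had 643, 687, 758, 641 and 715 CPM with 393P, against 1239.5, 1082, 900.3, 893 and 1144 CPM in CAFs alone. The groups did not overlap in either format, and the difference of -3.10 ± 0.24 (SE; edgeR adjusted p = 3.8e-11) came from changes of -3.71 in contact and -0.61 across the membrane. Masp1, a protease of the lectin route, fell in contact (-1.25) and differed by -1.76 ± 0.40, and C1qtnf6, a C1q-like secreted protein, had the positive difference (1.91 ± 0.27). Cxcl12, a chemokine for lymphocytes and progenitor cells that fibroblasts secrete, had a called change in contact and none across the membrane, one of 6 such chemokine and monocyte factor genes tested, with 1 positive and 3 negative differences (1 and 2 with own spread). The positive call was lost by limma-voom and without replicate 1 of CAFs alone in aggregates, and 2 were made without contact replicate 2 of 393P. Cxcl12 (chr6:117168535-117181367) had 233, 286 and 217 CPM in contact with 393P, against 1626, 1481 and 1669 CPM in CAFs alone in aggregates. Across the membrane, Cxcl12 had 1970.1, 1921, 1878, 1933 and 2098 CPM with 393P, against 1933, 1953, 1885, 1921 and 1916 CPM in CAFs alone. The membrane groups overlapped, and the difference was -2.72 ± 0.15 (SE; edgeR adjusted p = 6.3e-17). Of 11 IL-6 family and signalling genes, 2 had a positive and 4 a negative difference (1 and 4 with own spread), and 1 positive call was left without contact replicate 1 of 393P or replicate 1 of CAFs alone. Il6 itself, a cytokine of inflammatory fibroblasts, was one of the positive ones. Il6 (chr5:30013114-30019981) had 49.6, 41.3 and 21.5 CPM in contact with 393P, against 5.77, 15.9 and 8.36 CPM in CAFs alone in aggregates. Across the membrane, Il6 had 17.5, 14.7, 14.4, 13.3 and 13.1 CPM with 393P, against 12.9, 18.02, 12.8, 16.4 and 13.4 CPM in CAFs alone. The contact groups did not overlap and the membrane groups did. Its difference was 2.03 ± 0.39 (SE; edgeR adjusted p = 0.00014), and the receptor genes Lifr and Il6st differed by -1.70 ± 0.26 and -0.67 ± 0.14. Csf1, the macrophage growth factor gene, differed by -1.31 ± 0.22. Saa3, an acute phase gene, was not tested, with 1 to 3 counts with 393P and 0 to 9 in CAFs alone in aggregates, against 173 to 265 with 393P and 348 to 586 in CAFs alone in the Boyden chamber. Of 4 interferon response genes tested, edgeR called 0 at an adjusted p under 0.05 and 0 at an unadjusted one, and DESeq2 and limma-voom also called 0.

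The aryl hydrocarbon receptor is a transcription factor activated by small ligands, and it induces Tiparp, which feeds back on it. Both genes rose in contact and fell across the membrane, and the differences of the other three of the 5 genes tested on that list were not called. Without contact replicate 2 of 393P, 1 of those was called negative. Ahr (chr12:35497974-35535038) had 607, 639 and 551 CPM in contact with 393P, against 139.6, 182 and 159 CPM in CAFs alone in aggregates. Across the membrane, Ahr had 264, 260.04, 246, 229 and 251.10 CPM with 393P, against 301, 312, 275, 279 and 295 CPM in CAFs alone. No groups overlapped in either format. The Ahr difference was 2.15 ± 0.14 (SE; edgeR adjusted p = 2.7e-15). Tiparp (chr3:65528410-65555518) had 95.4, 73.9 and 70.3 CPM in contact with 393P, against 18.5, 15.9 and 26.5 CPM in CAFs alone in aggregates. Across the membrane, Tiparp had 26.3, 30.4, 25.6, 24.6 and 26.6 CPM with 393P, against 32.02, 36.6, 35.8, 28.5 and 34.99 CPM in CAFs alone. The Tiparp difference was 2.30 ± 0.26 (SE; edgeR adjusted p = 7.8e-09), and its membrane groups overlapped. The core of the receptor's response element is GCGTG, and the Tiparp window is shown because it bears on this pair. Searched on both strands, it held 1 match, in capitals (read as CACGC on the gene's strand), 170 bases before the start. Of 32851 RefSeq windows of that length, 32.4% held at least 1 match.
Tiparp, plus strand, chr3:65528197-65528496: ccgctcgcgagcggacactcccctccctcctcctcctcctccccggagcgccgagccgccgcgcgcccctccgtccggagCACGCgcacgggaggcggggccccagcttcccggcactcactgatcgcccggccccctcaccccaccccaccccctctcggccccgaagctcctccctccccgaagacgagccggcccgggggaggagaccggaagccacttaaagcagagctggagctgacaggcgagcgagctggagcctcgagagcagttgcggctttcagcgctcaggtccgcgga

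Hypoxia and glycolysis genes had 1 positive and 7 negative differences among 22 tested (1 and 6 with own spread). The negative calls were 3 without replicate 1 of CAFs alone in aggregates, 4 without contact replicate 3 of 393P and 4 by limma-voom, and the positive call, Pfkfb4, was lost without contact replicate 2 of 393P or replicate 3 of CAFs alone. Bnip3, a mitophagy receptor induced by hypoxia, was opposite. Bnip3 (chr7:138890836-138909519) had 20.4, 8.69 and 11.5 CPM in contact with 393P, against 47.3, 31.8 and 26.5 CPM in CAFs alone in aggregates. Across the membrane, Bnip3 had 22.8, 17.2, 15.9, 17.8 and 19.8 CPM with 393P, against 7.05, 10.3, 8.07, 8.57 and 8.52 CPM in CAFs alone. The groups did not overlap in either format, and the difference was -2.57 ± 0.37 (SE; edgeR adjusted p = 1e-06). Pdk1, which keeps pyruvate out of mitochondria, was also opposite, with -1.14 in contact and 0.77 across the membrane. Pfkfb3, which drives glycolysis, differed by -2.08 ± 0.27, whereas its paralogue Pfkfb4 rose under both conditions, by 2.73 in contact and 0.96 across the membrane. Mt2, a metallothionein that binds zinc, was opposite in the same sense as Bnip3. Mt2 (chr8:94172664-94173568) had 13.99, 11.9 and 14.4 CPM in contact with 393P, against 50.8, 58.3 and 73.9 CPM in CAFs alone in aggregates. Across the membrane, Mt2 had 20.1, 22.6, 19.9, 25.1 and 22.05 CPM with 393P, against 17.9, 14.7, 13.6, 15.2 and 15.9 CPM in CAFs alone. With 393P it was lower in each contact library and higher in each membrane sum. Its difference was -2.69 ± 0.31 (SE; edgeR adjusted p = 1.1e-08). The Bnip3 promoter window is shown for the core of the hypoxia response element, ACGTG. Its 2 matches, 108 and 107 bases before the start on either strand, are the same bases read both ways, a CACGTG palindrome (in capitals) that is also the E-box motif. At least 1 match was held by 19.6% of the 32851 windows.
Bnip3, minus strand, chr7:138909457-138909756: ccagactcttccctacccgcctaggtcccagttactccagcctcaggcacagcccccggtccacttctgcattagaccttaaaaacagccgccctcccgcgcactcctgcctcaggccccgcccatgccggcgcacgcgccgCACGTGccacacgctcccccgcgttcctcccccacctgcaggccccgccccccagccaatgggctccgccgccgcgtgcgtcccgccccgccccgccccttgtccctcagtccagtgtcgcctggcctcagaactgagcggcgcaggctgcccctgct

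Genes of the p53 response were called in 1 direction, with 8 negative and no positive differences among 14 tested (7 with own spread) and a median of -0.77 log2. Cdkn1a, the cell cycle inhibitor p21, was one of them. Cdkn1a (chr17:29090976-29100727) had 114, 130.4 and 215 CPM in contact with 393P, against 310.3, 348 and 346 CPM in CAFs alone in aggregates. Across the membrane, Cdkn1a had 126, 118, 115, 134 and 124 CPM with 393P, against 145, 116, 135, 123 and 139 CPM in CAFs alone. The contact groups did not overlap, the membrane groups did, and the difference was -1.05 ± 0.17 (SE; edgeR adjusted p = 1e-05). Ccng1 and Zmat3, also p53 targets, differed by -1.15 ± 0.17 and -1.001 ± 0.15. Of 23 cholesterol and lipid synthesis genes tested, 9 had a positive and none a negative difference (7 with own spread). The positive calls were 4 without replicate 1 of CAFs alone in aggregates, and without contact replicate 3 of 393P 1 gene was called negative. Srebf2, which switches the pathway on, differed by 1.31 ± 0.18 and Sqle, an enzyme of it, by 1.49 ± 0.27. Across these 23 genes, 12 rose in contact and 10 across the membrane, and 6 were concordant.

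Spp1 encodes osteopontin, a secreted integrin ligand. Spp1 (chr5:104435118-104441050) had 614, 494 and 534 CPM in contact with 393P, against 118, 93.7 and 106 CPM in CAFs alone in aggregates. Across the membrane, Spp1 had 112, 94.3, 95.1, 97.5 and 109 CPM with 393P, against 16.4, 23.03, 19.8, 21.8 and 24.5 CPM in CAFs alone. Spp1 was higher with 393P in every library of both formats, and the groups did not overlap. The changes were 2.35 ± 0.16 in contact and 2.26 ± 0.11 across the membrane, and the difference was 0.09 ± 0.20 (edgeR adjusted p = 0.822), with a 95% interval of -0.32 to 0.50. Hmga2, a chromatin protein of mesenchymal and embryonic cells, rose under both conditions, and further in contact. Hmga2 (chr10:120361275-120476469) had 842, 813 and 768 CPM in contact with 393P, against 234, 338 and 177 CPM in CAFs alone in aggregates. Across the membrane, Hmga2 had 525, 514, 467, 468 and 481 CPM with 393P, against 241, 244, 241, 231 and 215 CPM in CAFs alone. The libraries with 393P lay above those of CAFs alone in both formats. The difference was 0.65 ± 0.16 (SE; edgeR adjusted p = 0.00258). Col15a1, a collagen of the basement membrane zone, rose under both conditions. Col15a1 (chr4:47208161-47313167) had 779.9, 720.3 and 776 CPM in contact with 393P, against 53.1, 98.95 and 86.4 CPM in CAFs alone in aggregates. Across the membrane, Col15a1 had 3.40, 4.89, 5.19, 4.53 and 3.93 CPM with 393P, against 0.919, 2.43, 1.71, 2.73 and 2.07 CPM in CAFs alone. There was no overlap in either format, but the Boyden sums held only 6 to 31 counts each. The difference of 2.18 ± 0.29 was not called with the Boyden sums thinned to the aggregate depth. Spp1, Hmga2 and Col15a1 were among 7 concordant genes with at least 1 log2 unit in each change. The other four were Tmem151a, Gdpd2, Mtcl1 and Prokr1. Of these, Gdpd2 had 0 to 5 counts in a contact library with 393P, and its difference was -0.38 with all libraries and -2.42 without contact replicate 3.

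Of the 8 concordant genes named for the widest differences, 7 fell and 1 rose. Cemip, which had the widest, binds and breaks down hyaluronan. Cemip (chr7:83932857-84086502) had 16.5, 15.2 and 10.05 CPM in contact with 393P, against 237, 253 and 236 CPM in CAFs alone in aggregates. Across the membrane, Cemip had 2182, 2148, 2311, 2257 and 2004 CPM with 393P, against 2784, 2973, 2792, 3122 and 3034 CPM in CAFs alone. It was lower with 393P in both formats with no overlap, at -4.09 ± 0.21 in contact and -0.43 ± 0.08 across the membrane, and the difference was -3.66 ± 0.24 (SE; edgeR adjusted p = 3.9e-15). Slco4a1, an organic anion transporter gene, was the one that rose, with 3.27 in contact and 0.85 across the membrane.

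**Figure D4:**
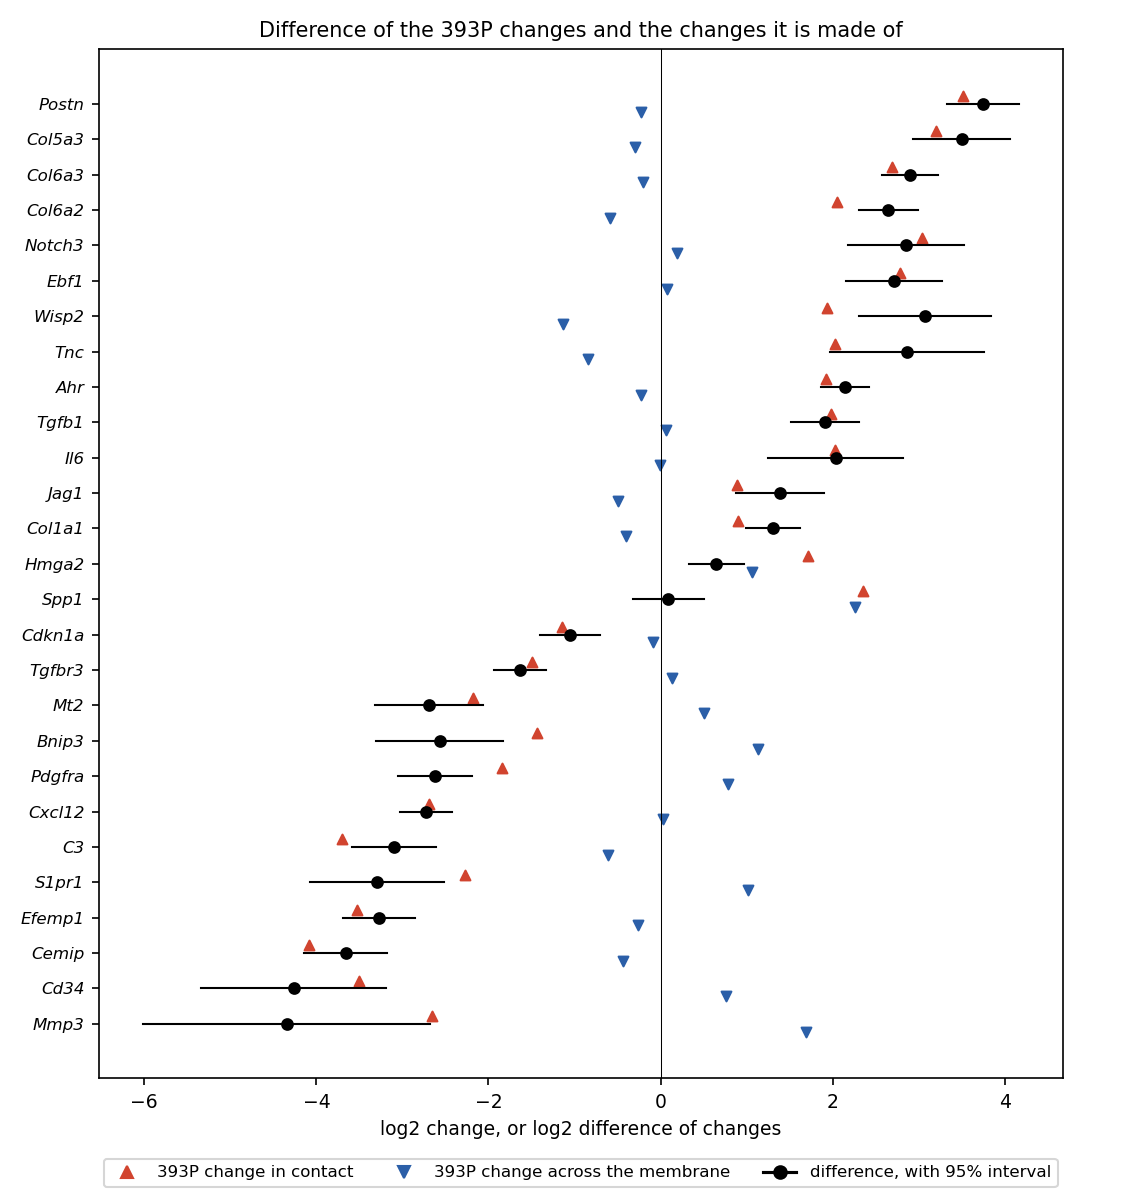
For 27 genes, the black point is the difference of the 393P changes (contact minus membrane, log2) with its 95% interval, the red triangle the contact change and the blue triangle the membrane change. In Spp1 the triangles lie together and the interval spans 0, while in Wisp2, Col6a2, Pdgfra and Bnip3 they lie on opposite sides of 0.

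Among all genes with at least 10 CPM in a group and more than 3 counts in each group, the 8 most positive differences were Cpxm2, Postn, Flt1, Col5a3, Npnt, Ppfibp2, Trpc6 and Cspg4, with values between 4.21 ± 0.48 and 3.14 ± 0.45. In CAFs alone in aggregates, Cpxm2 rested on 2, 2 and 4 counts, Ppfibp2 on 4, 5 and 0, and Trpc6 on 8, 3 and 12. Ppfibp2 overlaps Cyb5r2 and Cpxm2 overlaps the ribosomal RNA-like n-R5s159 on the other strand, so the counts of both are uncertain. Cpxm2 encodes a carboxypeptidase-like protein, and Npnt (nephronectin) an integrin ligand of basement membranes. The 8 most negative were Mmp3, Cd34, Cyp7b1, Frmd5, Cemip, Gcnt1, Prune2 and Enpp3, with values between -4.35 ± 0.80 and -3.44 ± 0.50. Cyp7b1, an oxysterol hydroxylase, had 5 counts in all over the contact libraries with 393P. Prune2 had 9 counts in contact replicate 2 with 393P and none in the other two, so that no fold can be given without that replicate. All 16 kept their call with own spread.

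The 393P difference was set against the same difference formed for 344SQ. The CAFs alone are shared by both lines and cancel in the comparison of the differences. The 344SQ difference was called for 747 genes (9.54%), and the 393P and 344SQ differences differed for 547 genes (6.99%) by edgeR's quasi-likelihood test. Of the 1293 genes with a called 393P difference, 339 (26.2%, and 4.33% of all genes tested) also differed from 344SQ. In 326 of these 339 the 393P difference was the larger in its own direction. They were first picked for a called 393P difference, which favours that outcome, so the count does not compare the lines. For Postn the difference was 3.74 ± 0.21 with 393P and 0.38 with 344SQ, and for Col6a2 it was 2.65 ± 0.17 and 0.36. Notch3 stood at 2.85 ± 0.33 with 393P and 0.29 with 344SQ, and Col1a1 at 1.31 ± 0.16 and 0.22, and each of these pairs differed. Il6 had differences of 2.03 ± 0.39 with 393P and -1.12 with 344SQ (edgeR adjusted p = 6.1e-08 for the contrast of the lines). For Wisp2, Bnip3 and Ahr, which were opposite with 393P, the contrast of the lines missed the threshold. Wisp2 stood at 3.07 ± 0.38 with 393P and 2.65 with 344SQ, and the 95% interval of the contrast was -0.19 to 1.03. Bnip3 stood at -2.57 ± 0.37 and -2.60, with an interval of -0.78 to 0.84. Ahr stood at 2.15 ± 0.14 and 2.50, with an interval of -0.61 to -0.10 (edgeR adjusted p = 0.0883). Spp1 had a difference near 0 with both lines, at 0.09 ± 0.20 with 393P and -0.23 with 344SQ, and its contrast was not called.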

How the data were processed

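The values were RNA-seq counts per gene, which the authors deposited in an aggregate table and a Boyden chamber table. Per the submitters' processing notes, the tools were STAR and HTSeq and the build mm10; their versions and the strand setting are not stated there. Genes were matched to GENCODE M21 for 48058 of 48440 identifiers. The technical Boyden libraries were summed per replicate. Genes passing edgeR's filterByExpr in each table were fitted together by edgeR 4.0.16 (R 4.3.3) with TMM scaling, 6 group means over 24 columns (9 aggregate libraries and 15 Boyden sums, 344SQ included) and the quasi-likelihood test. Adjusted p-values are Benjamini-Hochberg over the 7827 genes. A standard error is the size of the log2 change over the root of the F statistic, and CPM are counts over the TMM-scaled library size, in the usual unit. "Own spread" means that each table was fitted alone and the 2 estimates were subtracted. In simulated data with the spread of each table, the joint test made more false calls than its threshold allows, 36 of 211 (17.06%). The false share was 5.17% with own spread and 4.88% by limma-voom, so calls that all 3 share are the firmer ones. Alternatives used DESeq2 1.42.0, limma 3.58.1 (voom), other scalings and filters, thinning, and libraries left out.

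The labels give replicates of a group without saying that they came from separate animals or cultures, so p-values measure the spread between these samples. Members, lists and tests were chosen with earlier results of these data known. Genes given with per-library values came from a rule: the 8 widest differences in each direction with at least 10 CPM in 1 group and more than 3 counts over each group, up to 8 each of the opposite and the concordant genes, up to 3 per list by smallest p, and a few fixed names. Notch1, Rbpj, Hes1, Pdgfrb, Thy1, Pdk1, Pfkfb4, Masp1, Col3a1, Col4a5 and Twist1 were chosen after their values were seen. Genes on chromosome 18 that the rule gave were left out, and Pdgfrb, on the same chromosome, is named from the lists. Promoter windows are RefSeq's for GRCm38.p6, and Ahr had none in the table used.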

Additional observations from a re-analysis of the deposited data

Results flagged for a closer look

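The 34 genes named for the widest differences or for opposite or concordant changes were checked, and genes named from the lists were not. The 34 were picked by their 393P changes, which favours a wider difference with 393P than with 344SQ. For 17 of the 34, the 393P difference (contact change minus membrane change, log2) itself differed from the 344SQ difference in the edgeR contrast of the lines, in which the CAFs alone cancel. No cause was tested.

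In 7 genes the contrast was positive. The 393P difference exceeded the 344SQ difference by 3.43 in Col5a3 (3.50 with 393P and 0.07 with 344SQ) and by 3.36 in Postn (3.74 and 0.38). It was higher by 2.77 in Npnt (3.32 and 0.56) and by 2.34 in Col15a1 (2.18 and -0.16). In Flt1 the contrast was 2.86 (3.62 with 393P and 0.76 with 344SQ), in Cpxm2 it was 2.25 (4.21 and 1.96), and in Slco4a1 it was 2.11 (2.42 and 0.31).

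In 9 genes the 393P difference was the more negative. The contrast was -2.58 in Frmd5 (-3.87 with 393P and -1.29 with 344SQ) and -1.94 in Efemp1 (-3.27 and -1.33). Adamts5 also gave -1.94 (-2.43 and -0.49), and Gcnt1 gave -1.89 (-3.47 and -1.58). It was -1.69 in Fam13c (-2.68 and -0.99), which overlaps Phyhipl on the other strand, and -1.68 in Bnc1 (-2.67 and -0.9955). S1pr1 gave -1.42 (-3.30 and -1.88), Adamtsl3 gave -1.19 (-3.17 and -1.97) and Cemip gave -1.15 (-3.66 and -2.51). By limma-voom the contrast was not called for Cemip (adjusted p = 0.130), S1pr1 (adjusted p = 0.223), Fam13c (adjusted p = 0.108) and Bnc1 (adjusted p = 0.146).

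Gdpd2 gave -2.37, from -0.38 with 393P, which was not called, and 1.99 with 344SQ. It rests on 0 to 5 counts per contact library with 393P.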

How the results depend on the processing

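The joint test shares 1 spread between tables of unequal spread, so it calls more contact changes and fewer membrane changes than fits with separate spreads. The contact calls were 1403, against 859 with own spread and 863 by limma-voom, and the membrane calls 1064, against 1667 by limma-voom. Negative differences were 582, against 381 by limma-voom, and the line contrasts 547, against 308. A difference of at least 1 log2 unit was called for 78 positive and 84 negative genes. Thinning the Boyden sums to 991901 counts left 263 membrane calls, 51 concordant and 45 opposite genes and 359 line contrasts. With 1 technical library per Boyden replicate instead of the sum of 3, 428 positive and 372 negative differences, 454 membrane calls, 55 concordant and 47 opposite genes and 203 line contrasts were called. Leaving out each replicate in turn gave 593 to 724 positive and 484 to 580 negative differences, 1115 to 1390 contact calls and 738 to 1186 membrane calls. It gave 140 to 187 concordant genes, 90 to 129 opposite genes and 412 to 546 line contrasts.

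Deviations from the group mean of same-numbered samples correlated between -0.015 and 0.013 over 3 aggregate pairs and between -0.208 and 0.456 over 5 Boyden pairs. The value of 0.456, for replicates numbered 2, was the highest of all Boyden combinations. So few pairs cannot show whether the replicate numbers pair the samples, and the main fit took them as unpaired. With a replicate block, 663 positive and 554 negative differences, 1325 contact calls, 919 membrane calls, 172 concordant genes, 101 opposite genes and 474 line contrasts were called. The other settings, among them DESeq2 (813 positive and 716 negative) and no filter (752 and 516), kept these counts within 1.5 times. Of the 129 named genes with a called difference, own spread lost 7 and none reversed in any of 29 alternatives. Without contact replicate 3 of 393P, the library richest in carcinoma markers in that group, 651 positive and 527 negative differences were called. Membrane replicate 1 of 393P was the richest in them among the Boyden sums. Without its technical library 2, 713 positive and 590 negative differences and 1212 membrane changes were called. Aggregate depth limits genes with few counts there.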

Other observations

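Genes of EGF family signalling and the MAPK pathway, among them ligands, a receptor, target transcription factors and feedback inhibitors, had 4 positive and 1 negative difference among 13 tested. Over all genes tested, 9.08% had a positive and 7.44% a negative difference, so the 1 negative call is near that share. The negative call was lost by limma-voom and without contact replicate 3 of 393P or replicate 2 of CAFs alone in aggregates. Dusp4, a MAPK phosphatase, rose by 2.46 in contact with a change of 0.26 across the membrane, and its difference was 2.20 ± 0.32 (SE). Spred1 and the transcription factor gene Etv4 were concordant and rose further in contact, with differences of 1.24 ± 0.19 and 1.23 ± 0.31. Spry2 was the negative one, with -0.13 in contact and 0.57 across the membrane. Among 23 immediate early genes, 2 had a positive and 5 a negative difference (1 and 6 with own spread). The 2 positive calls are near the share over all genes. Leaving out 1 library gave 1 to 3 positive and 3 to 7 negative calls, with 3 negative ones without replicate 2 of CAFs alone in aggregates. Klf4 differed by -1.23 ± 0.19 and Atf3 by -1.44 ± 0.44, while Nr4a1, an orphan nuclear receptor gene of the same early response, differed by 1.14 ± 0.29.

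Guidance genes, first known from growing axons and also used by stromal cells, had 6 positive and 4 negative differences among 15 tested (5 and 3 with own spread), with 2 negative calls by limma-voom and 2 without replicate 1 of CAFs alone in aggregates. The semaphorin and VEGF co-receptor genes Nrp1 and Nrp2 differed by 1.68 ± 0.17 and 1.97 ± 0.31, and the netrin receptor gene Unc5b by 1.77 ± 0.18, each with no called change across the membrane. Slit2, a secreted repellent, was opposite, with 1.02 in contact and -0.42 across the membrane. Sema3c, a secreted semaphorin that binds neuropilins, went the other way and differed by -1.76 ± 0.26. Figf, which encodes VEGF-D, fell under both conditions, with -2.65 in contact and -0.87 across the membrane. Fst, an activin antagonist, differed by 1.78 ± 0.31. Of 17 genes of the unfolded protein and integrated stress responses, 1 was called in the difference, and it was negative. Over all genes tested, 16.5% were called, so 1 of 17 is below that share. Without replicate 1 of CAFs alone in aggregates, 1 of the 17 was called positive and 3 negative. Names in these paragraphs that the rule did not give (Spry2, Atf3, Nr4a1, Nrp2, Sema3c) were chosen after their values were seen.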
